A study of Mus musculus with 64 samples.

Results

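The major urinary proteins (Mup) were followed through mouse eight-cell embryos, ES cells, fetal liver and adult liver as 7 genes, Mup1, Mup2, Mup3, Mup4, Mup5, Mup20 and Mup21. They were 7 of the 23338 genes counted and 7 of the 20 Mup genes that the count files hold. The 7 had been picked with their levels by stage and their levels by sex in adult liver already known, so those values are given below as a description, with no test. The labels named the strain C57BL/6 (C57BL/6 J in the methods) and the sex of each of the 64 samples, and no treatment or engineered allele was named for any group. The groups were 6 male and 6 female single eight-cell embryos of 2.5 days post-coitum from natural matings, and 2 male and 2 female ES cell lines. The lines had been derived from embryos of that stage and kept in 2i medium with LIF, so each sample is a line rather than an animal. The other groups were 12 male and 12 female fetal livers of late gestation, and 12 male and 12 female adult livers of 15 to 20 weeks. Embryo libraries came from an amplified single-cell protocol and the rest from a stranded total RNA kit, so levels in embryos and in the other stages cannot be told apart from the protocols.

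Major urinary proteins are small secreted carriers of the lipocalin family, whose barrel-shaped pocket holds volatile pheromones. In adult mice the liver makes them in bulk, the kidney lets them pass into the urine, and they release the scent slowly from urine marks. Their synthesis in liver is known to depend on the pulsed growth hormone secretion of males, on androgens and on thyroid hormone. Mup20 encodes darcin, the urinary protein of males that attracts females, and Mup4 and Mup5 are known mainly from the nasal, lacrimal and salivary glands.

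The genes lie side by side on chromosome 4 of the mm10 (GRCm38) assembly, the build of the count files. In the RefSeq annotation of that build the cluster held 22 Mup genes and 23 Mup pseudogenes on 2.19 Mb, from Mup4 to Mup21, between Slc46a2 and Zfp37. In the GENCODE annotation of the same build, Mup4 (chr4:59956804-59960710), Mup2 (chr4:60135932-60154289) and Mup1 (chr4:60498012-60501960) lay in the left and middle part. Mup5 (chr4:61831319-61835233), Mup20 (chr4:62050234-62054158), Mup3 (chr4:62083476-62087342) and Mup21 (chr4:62147932-62150863) lay at the right end, and all 7 were on the minus strand. Their coding transcripts had 7 exons, and 6 for Mup21, over 677 to 984 bases.

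How alike these copies are bears on which of their reads could be assigned, because a read matching several copies had not been counted. A stretch of 60 coding bases shows it, aligned without gaps in all 7 genes, from coding base 127 to 186 of Mup1. The sequences are those of the GENCODE transcripts, and capitals mark the bases that differ from Mup1.
Mup1: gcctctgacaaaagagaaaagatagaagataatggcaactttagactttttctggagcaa
Mup2: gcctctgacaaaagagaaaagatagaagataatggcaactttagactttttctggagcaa
Mup4: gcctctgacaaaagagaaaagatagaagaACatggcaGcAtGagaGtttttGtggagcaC
Mup5: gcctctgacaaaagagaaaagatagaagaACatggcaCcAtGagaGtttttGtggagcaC
Mup20: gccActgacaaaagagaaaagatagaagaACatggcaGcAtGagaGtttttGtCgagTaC
Mup3: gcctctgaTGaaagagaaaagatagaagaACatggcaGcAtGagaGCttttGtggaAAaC
Mup21: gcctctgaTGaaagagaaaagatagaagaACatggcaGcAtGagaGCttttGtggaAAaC
Mup1 and Mup2 did not differ in this stretch. Mup4 and Mup5 differed from Mup1 at 8 of the 60 bases, Mup20 at 11, and Mup3 and Mup21 at 13. Over the whole coding sequence, identity between pairs of the 7 ran from 83.0% to 99.4% with a median of 88.8% (21 pairs). The 78 pairs among the other 13 Mup genes ran from 89.3% to 99.8% with a median of 98.9%.

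Each transcript was also cut into every stretch of 50 bases, and each stretch was looked for in the transcripts of all other genes. Found nowhere else were 87.6% of the stretches of Mup4, 84.4% of Mup3, 82.9% of Mup5, 80.7% of Mup21 and 49.5% of Mup20. Of the stretches of Mup1 only 5.24% were unique, and of Mup2 none were. With stretches of 100 bases the unique share was 97.1% for Mup3, 61.2% for Mup20, 12.8% for Mup1 and 2.66% for Mup2. The closest relative of Mup1 was Mup12 (99.6% coding identity) and those of Mup2 were Mup9 and Mup15 (99.6% each), whereas Mup20 was at most 91.4% identical to another Mup gene, Mup11. Counts of Mup1 and Mup2 thus rest on few separable bases, and reads that matched other copies equally well went uncounted. Whether the counted reads were placed on the right copy was not tested. The annotation given with the study draws Mup2 on to the end of Mup15, so a read counted on Mup2 could also come from Mup15.

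**Figure D1:**
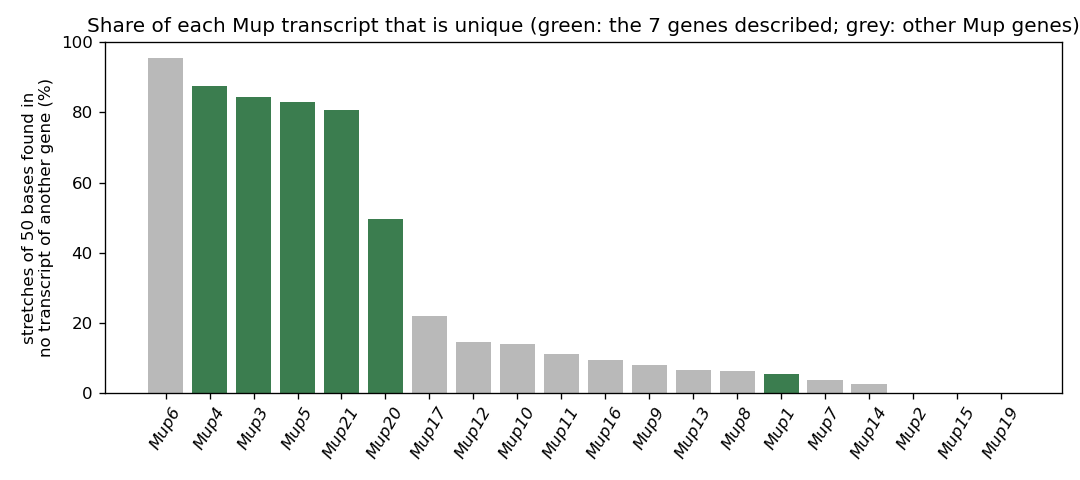
Bars give, for each of 20 Mup genes, the percent of 50-base stretches of the coding transcript found in no transcript of another gene. Green bars are the 7 genes described here, of which Mup4, Mup3, Mup5 and Mup21 stand above 80% and Mup2 at 0, and grey bars are the other Mup genes.

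Each embryo library held 4659656 to 7725432 reads on genes and each ES cell library 9857929 to 10386931. Fetal livers held 5145371 to 8499603 reads and adult livers, the shallowest, 1567583 to 4757610. Levels are given in CPM, the reads of a gene scaled to a library of 1e+06 reads on genes, with factors by the trimmed mean of M-values (TMM) within each stage. The factors were not shared between stages. Fits over both liver stages scaled them together, so their log2 differences can depart from the ratios of CPM. A floor of 3 reads in a library corresponds to 0.354 to 0.586 CPM in fetal liver and 0.608 to 1.92 CPM in adult liver. Floors and intervals cover counting error only. Lines for reads with several alignments were 1.44 per read on a gene at the median in adult males (range 1.09 to 2.26) and 0.87 in adult females (0.703 to 1.17). In fetal liver that ratio ran from 0.55 to 0.631. How many of these lines were Mup reads was not tested.

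The labelled tissues carried their own markers. The 9 listed hepatocyte markers summed to 37856 to 52177 CPM in fetal and 41318 to 59694 CPM in adult livers. Of these, Afp, the fetal albumin relative, averaged 14065 CPM in male fetal and 1.55 CPM in male adult livers. Other markers of the list had the opposite order, so similar sums hide unlike members. In males Tat, an enzyme of tyrosine breakdown, averaged 3.25 CPM in fetal and 1603 CPM in adult liver. Cyp2e1, a cytochrome, had 22.8 and 4035 CPM and Cps1, an enzyme of the urea cycle, 1469 and 6863 CPM. In embryos and ES cells the hepatocyte sum was at most 118 CPM. Erythroid markers summed to 1621 to 2566 CPM in fetal livers, 154 to 197 CPM in adult males and 14.5 to 43.0 CPM in adult females. The gap between the adult sexes lay in Alas2, the first enzyme of erythroid heme synthesis. The part of these markers in the Mup values was not tested.

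In the embryos and the ES cells the 7 genes had almost no counted read at this depth. Reads matching several copies were not counted, so a lack of reads does not show silence for Mup1 and Mup2. None of the 12 embryos had a read on any of them. Among the 4 ES lines a single read fell on Mup4, in male line 2. The only Mup gene with more than that in ES cells was Mup6, which is not one of the 7. Mup6 had 58 and 61 reads in the male lines and 111 and 102 in the female lines, or 5.68 ± 0.2 and 10.9 ± 0.464 CPM (mean ± SD, n = 2 each). The female lines were above the male ones, and no test was made on 2 lines against 2.

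Fetal livers, whose hepatocytes already made albumin, carried almost no counted Mup reads. In the 12 males the 7 genes together collected 23 reads, of which 17 were on Mup20, 4 on Mup21 and 2 on Mup3. Mup1, Mup2, Mup4 and Mup5 had none. The Mup20 count per male library was 0 to 4 reads with a median of 1. In females Mup20 ran from 0 to 336 reads with a median of 1.5, and 2 libraries set that upper end. Female fetal liver 22 had 336 reads on Mup20, 232 on Mup3, 28 on Mup1 and 5 on Mup21. Female fetal liver 21 had 38 reads on Mup20, 21 on Mup3 and 2 on Mup21. Over all 20 Mup genes these were 811 and 83 reads, and each of the other 22 fetal livers had at most 6.

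The sex comparison in fetal liver did not enter the choice of the genes and could be tested. None of the 7 passed the filter on low counts there, and none of the other 13 Mup genes did. Of all 12930 genes tested by edgeR in fetal liver, 4.64% were called, at an adjusted p under 0.1 and an absolute log2 difference above 0.5. Mup20 averaged 0.205 ± 0.142 CPM in males (SD, n = 12) and 4.63 ± 13.9 CPM in females (n = 12), and the groups overlapped (permutation test, two-sided, p = 0.145, adjusted over 3 genes p = 0.173). Without female livers 21 and 22 the female mean was 0.249 ± 0.235 CPM (n = 10, permutation p = 0.595, adjusted p = 0.631). Mup3 gave a permutation p of 0.149 (adjusted p = 0.173) with all 24 livers and 0.631 (adjusted p = 0.631) without those 2, and Mup21 gave 0.173 (adjusted p = 0.173) and 0.521 (adjusted p = 0.631). When the filter was dropped, edgeR called Mup3 (log2 male/female −6.11 ± 1.65 SE, adjusted p = 0.0115) and Mup20 (−4.30 ± 1.22, adjusted p = 0.0152) as higher in females. Without livers 21 and 22 the same fit gave adjusted p-values of 0.76 and 0.82. The calls in fetal liver were thus present only with those 2 libraries in the fit.

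Liver 22 also held reads on genes of adult liver outside the family. Of non-Mup genes, 12 had at least 100 CPM in adult males and at most 3 reads in each of the other 22 fetal livers, and all 12 had more than 3 reads in liver 22, as 5 of them did in liver 21. The choice of the 12 kept the other 22 at or under 3 reads, and no such list was made for another fetal liver. Their level in liver 22 was 0.627% of the adult male mean at the median. Of the 12, Inmt, Cyp2c54, Mug-ps1 and Slco1a4 had higher means in adult females than in adult males, and the rest had lower ones. Among them Mug1, a murinoglobulin protease inhibitor, had 513 reads and Cyp2c29, a cytochrome of adult liver, had 54. Mup20 stood at 0.95% of its adult male mean in liver 22, Mup3 at 0.736%, Mup1 at 0.707% and Mup21 at 0.226%. The Y-linked gene Ddx3y had 10 reads there and Eif2s3y had 5, at 0.863% and 0.87% of the adult male means. In the female fetal livers other than 21 and 22, Ddx3y was at most 0.147 CPM and Eif2s3y at 0. Liver 22 had 1.45 CPM of Ddx3y and 0.724 CPM of Eif2s3y, where adult females reached 0.66 and 0.991 CPM.

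The make-up of the Mup reads in liver 22 is set beside that of the adults. Mup20 took 41.4% of them (95% Wilson interval 38.1% to 44.9%) and Mup3 28.6% (25.6% to 31.8%). In adult males Mup20 took 38.0% and Mup3 33.8% of all counted Mup reads, and in adult females Mup20 took 5.15% and Mup3 91.0%. The origin of these reads in livers 21 and 22 was not tested.

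**Figure D2:**
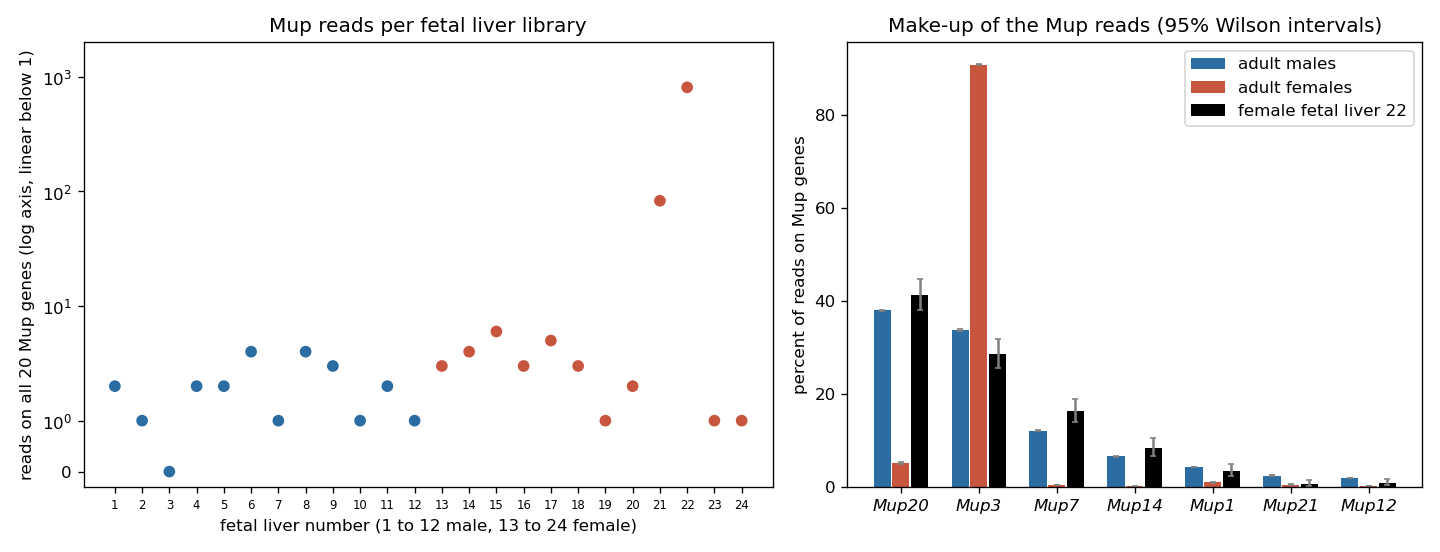
Left, each point is the number of reads on all 20 Mup genes in 1 fetal liver library on a log axis that is linear below 1, males blue and females red, with livers 21 and 22 at 83 and 811 reads and the others at 6 or fewer. Right, bars give the percent of Mup reads on each gene with 95% Wilson intervals for 12 adult males pooled, 12 adult females pooled and female fetal liver 22, where Mup20 holds 38.0%, 5.15% and 41.4%.

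In adult liver all 20 Mup genes together took 1.05% to 1.68% of reads on genes in males (median 1.35%) and 0.207% to 0.294% in females (median 0.272%). The 7 genes held 74.7% to 80.7% of these reads in males and 95.2% to 99.4% in females. Per kilobase of transcript, Mup20 ranked 3 and Mup3 ranked 5 among 18608 genes in males, where Alb, the albumin gene, ranked 1. In females Mup3 ranked 13 and Mup20 ranked 478. These shares and ranks rest on reads that matched 1 gene. Of stretches of 50 bases, 84.4% were unique in Mup3 and 49.5% in Mup20, but 5.24% in Mup1, 3.64% in Mup7 and 2.40% in Mup14. How far uncounted reads shift the shares and ranks was not tested. In bulk tissue, fewer cells making a transcript and less of it per cell cannot be told apart.

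Adult over fetal ratios are bounds or wide ranges, because the fetal counts were at or near 0. They are ratios of CPM scaled within each stage. In males Mup1 was at least 14800-fold higher in adult than in fetal liver, counted against a floor of 3 reads over the 12 fetal males. Mup3 was 176000-fold higher in adult males (95% counting interval 48800 to 1450000, from 2 fetal reads). Mup20 was 23300-fold higher in adult males (95% counting interval 14500 to 39900, from 17 fetal reads) and Mup21 6170-fold (2410 to 22700, from 4 fetal reads). In females without livers 21 and 22, Mup3 was 55400-fold higher in adults (19000 to 269000, from 3 fetal reads). Mup1 was at least 582-fold higher, Mup20 513-fold (324 to 865) and Mup21 122-fold (59.0 to 303.0). In the stage fit over 48 livers, 4 of the 7 passed the filter and all 4 were higher in adults, as were the 6 of the other 13 Mup genes that passed. These genes passed through the adult livers alone, so nothing is read from either count. Of all 13026 genes tested, 31.8% were called higher in adults.

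**Figure D3:**
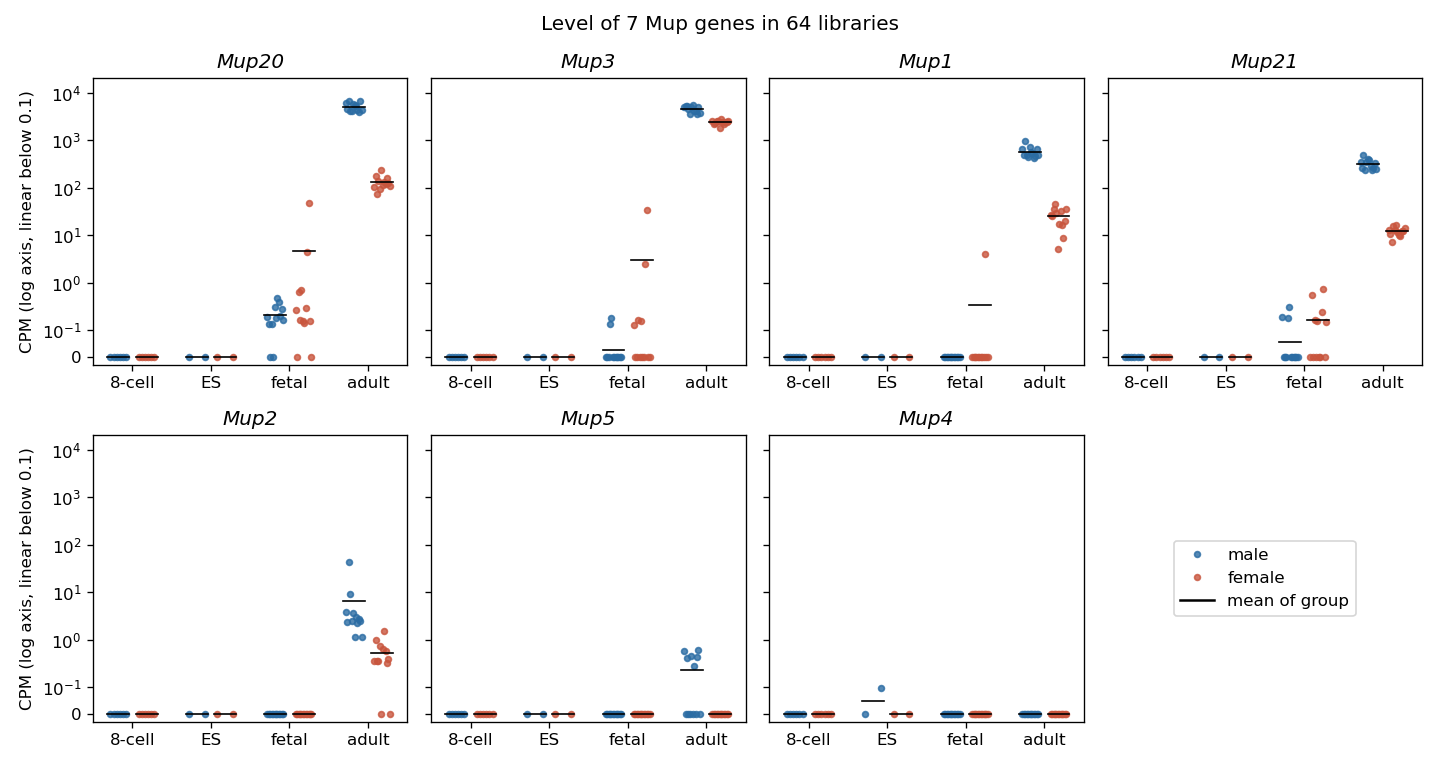
Each point is 1 library and each black line a group mean, with CPM on a log axis that is linear below 0.1, for males (blue) and females (red) of the 4 stages. Mup20, Mup3, Mup1 and Mup21 lie near 0 in most fetal livers and high in adult livers, with fetal livers 21 and 22 between, while Mup4 has a single read in all 64 libraries.

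Mup20, the darcin gene, had the widest gap between the sexes among the 4 of the 7 genes that passed the filter in adult liver. Its level in males was 3902 CPM at the lowest, 4899 at the median and 6772 at the highest, with a mean of 5122 ± 1049 (SD, n = 12). In females it was 73.0, 122 and 240.5 CPM, with a mean of 132 ± 44.0 (n = 12). Every male was above every female, the lowest male 16.2-fold above the highest female. The edgeR log2 difference (male/female) was 5.24 ± 0.175 (SE), given without a test.

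Mup3 was high in both sexes. Males had 3495, 4773 and 5584 CPM at the lowest, median and highest, and females 1822, 2462 and 2731. Every male was again above every female, but the lowest male was only 1.28-fold above the highest female. The mean of males was 4562 ± 710 CPM (n = 12), that of females 2384 ± 238 (n = 12), and the log2 difference was 0.91 ± 0.0762 (SE). Mup3 took 86.7% to 93.9% of the counted Mup reads in each female library and 30.6% to 38.1% in each male library.

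Mup1 ran from 426 to 949 CPM in males (median 509.5) and from 5.19 to 46.3 CPM in females (median 25.6), with a log2 difference of 4.49 ± 0.242 (SE). Mup21 ran from 238 to 486 CPM in males (median 312) and from 7.26 to 16.8 CPM in females (median 12.3), with a log2 difference of 4.67 ± 0.14 (SE). For both genes the sexes did not overlap. Of the 10372 genes tested in adult liver, 1.39% had every male above every female, and 3.01% were called higher in males. The 4 genes that passed the filter were called higher in males, a count that the choice of genes fixed. Only 5.24% of the 50-base stretches of Mup1 are unique, and how many of its reads went uncounted was not tested.

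The remaining 3 genes were close to the floor. Mup2 had 2 to 109 reads in males and 0 to 3 in females. Its male mean of 6.54 ± 12.05 CPM rested on male 3, with 109 reads, and was 3.12 ± 2.22 CPM without that liver (n = 11), and the sexes overlapped. Mup5 had 8 reads over 6 of 12 males and none in females. Mup4, the gland gene with the highest unique share of the 7, had no read in any of the 24 adult livers, although 87.6% of its stretches of 50 bases were unique.

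**Figure D4:**
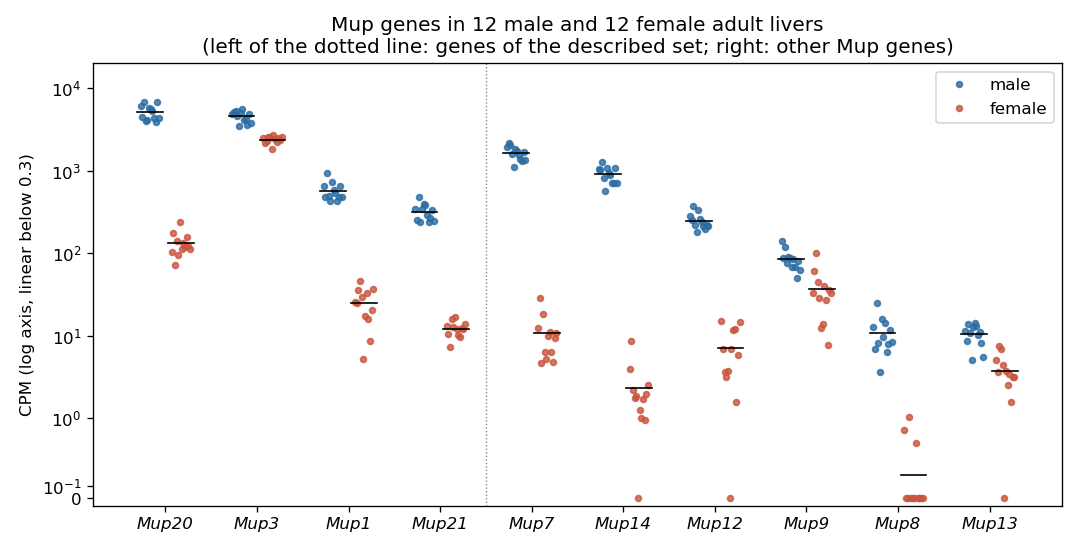
Each point is 1 adult liver and each line a group mean, in CPM on a log axis that is linear below 0.3, for 4 genes of the described set (left of the dotted line) and 6 other Mup genes. The sexes stand apart for Mup20, Mup1, Mup21, Mup7, Mup14, Mup12 and Mup8, lie close without overlap for Mup3 and overlap for Mup9 and Mup13.

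Among the other 13 Mup genes, 6 passed the filter in adult liver, and edgeR called them higher in males. A gene that passed through the males alone had to be higher there, so no count over the 6 is read against the 3.01% of all genes. Mup8, Mup12, Mup13 and Mup14 each had a female liver with no read, so the females alone did not carry them past the filter. The differences of these genes are given with no p. Mup14 had 903 ± 206 CPM in males and 2.32 ± 2.20 in females (n = 12 each), a log2 difference of 8.47 ± 0.253 (SE). Mup7 had 1642 ± 318 and 10.7 ± 6.996 CPM (log2 7.20 ± 0.244, edgeR adjusted p = 3.47e-17), and no male overlapped a female for either gene. For Mup8, with 378 reads over the 12 males and 6 over the 12 females, the log2 difference was 5.38. Mup12 had a log2 difference of 5.19. Mup9 differed least, with a log2 difference of 1.16 ± 0.285 (edgeR adjusted p = 0.00399), and Mup13 by 1.37 ± 0.253. The sexes overlapped for both. The difference of the sex differences between adult and fetal liver was called for 3 of these 6 (Mup7, Mup12 and Mup14). It was called for none of them without female fetal livers 21 and 22. The 6 passed that filter through the adult livers alone, so this count is not read against the 5.18% of all 13026 genes. Each of these 6 had at most 14.6% unique stretches of 50 bases, so reads that matched near-identical copies equally well went uncounted.

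The promoters of Mup3 and Mup21, which differ in their sex difference, can be set against each other. RefSeq promoter sequences were matched for 4 of the 7 genes, Mup2, Mup3, Mup4 and Mup21, and for 9 other Mup genes. The 250 bases before the RefSeq start of Mup3 (chr4:62087318-62087567, minus strand) and of Mup21 (chr4:62150842-62151091, minus strand) are printed from GRCm38, 5′ to 3′, with capitals for bases that have no identical partner in their alignment. GENCODE draws both genes longer at this end, so the last 25 bases of the Mup3 window and the last 22 of the Mup21 window lie inside its gene models.
Mup3: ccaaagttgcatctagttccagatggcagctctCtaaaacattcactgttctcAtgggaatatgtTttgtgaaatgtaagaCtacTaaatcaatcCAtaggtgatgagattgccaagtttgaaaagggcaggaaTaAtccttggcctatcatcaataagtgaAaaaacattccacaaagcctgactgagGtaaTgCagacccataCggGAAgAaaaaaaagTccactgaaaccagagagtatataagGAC
Mup21: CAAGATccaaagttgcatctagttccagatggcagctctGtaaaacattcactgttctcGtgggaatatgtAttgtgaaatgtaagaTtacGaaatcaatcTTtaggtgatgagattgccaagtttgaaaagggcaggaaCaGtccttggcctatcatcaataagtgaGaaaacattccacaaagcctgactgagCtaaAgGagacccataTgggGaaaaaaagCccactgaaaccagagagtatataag
The alignment of the pair was 89.1% identical over its whole length, overhanging ends included, with 22 such bases in each. Beside this, males exceeded females 1.91-fold in mean CPM for Mup3 and 26.2-fold for Mup21. By the same measure the promoter of Mup3 was 74.9% identical to that of Mup4 and 57.2% identical to that of Mup2. Those windows begin and end at different places of the shared sequence. The measure thus counts overhanging ends as unlike and falls below the identity of the overlapping part. The letters TTCNNNGAA, the core of STAT5-type sites, and TATAAA were searched on both strands of these 250 bases, and no match of one can overlap a match of the other. TTCNNNGAA was in none of the 13 Mup promoters and in 7.02% of all 32851 promoters. TATAAA was in 2 of the 13, those of Mup4 and Mup6, beginning 27 bases before the start in both, and in 12.4% of all promoters. Only these exact letters were searched, so the similar letters tatataag near the end of both printed sequences were not counted. The windows of Mup7, Mup11 and Mup14 end before that position. Lack of a match is therefore not lack of a TATA-like element.

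Within each sex the adult livers varied by gene. In males the coefficient of variation was 15.6% for Mup3, 20.5% for Mup20, 24.3% for Mup21 and 26.6% for Mup1, beside a median of 14.2% over 8191 genes of at least 10 CPM. In females it was 10% for Mup3, 21.4% for Mup21, 33.2% for Mup20 and 48.4% for Mup1, beside a median of 15.6% over 8319 genes. Mup3 was thus below the female median, while Mup1 was above 98.9% of genes in females. Counting error is part of these values and weighs more at low counts. Per female library Mup21 had 17 to 45 reads, Mup1 13 to 132, Mup20 174 to 603 and Mup3 3854 to 7734.

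Some of the genes varied together between males. Of the 10 pairs of Mup1, Mup2, Mup3, Mup20 and Mup21 over the 12 males, 3 had a correlation of log2 (CPM + 0.5) that passed an adjusted p of 0.05 over the 16 pairs of both sexes. How often pairs of other genes reached such values in these males was not tested, so the count is not read as particular to Mup genes. Mup1 and Mup20 had r = 0.89 (permutation p = 7e-05, adjusted p = 0.00112) and rho = 0.85 (permutation p = 0.00079, adjusted p = 0.0126). Without the 2 livers farthest from the median of Mup1, r was 0.91. Mup1 and Mup21 had r = 0.83 (permutation p = 0.00081, adjusted p = 0.00648) and rho = 0.76 (permutation p = 0.00631, adjusted p = 0.0505), and r = 0.61 without the farthest 2. Mup20 and Mup21 had r = 0.77 (permutation p = 0.0044, adjusted p = 0.0235) and rho = 0.71 (permutation p = 0.0127, adjusted p = 0.0556), and r = 0.73 without the farthest 2. In 4 males, livers 3, 6, 7 and 11, only 26.8% to 29.8% of counted lines fell on a single gene, against 32.8% to 38.7% in the other 8. Within those 8 males r was 0.85 for Mup1 with Mup20, 0.47 for Mup1 with Mup21 and 0.53 for Mup20 with Mup21. Leaving out male 3 left 1 of the pairs, Mup1 with Mup20 (r = 0.89, permutation test, adjusted p = 0.00576), past 0.05.

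In females none of 6 pairs passed. Mup1 and Mup20 had r = −0.65 (permutation p = 0.0231, adjusted p = 0.0616) and rho = −0.45 (permutation p = 0.139, adjusted p = 0.247), with r = −0.12 without the farthest 2. Female 18 had the highest Mup20 level (240.5 CPM) and the lowest Mup1 (5.19 CPM), Mup12 (0 CPM) and Mup14 (0 CPM) of the females. Without it, r for Mup1 and Mup20 was −0.36 over 11 livers. Within the 8 females of higher counted share it was −0.71, with liver 18 among them. A difference between the sexes in these correlations was not tested.

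**Figure D5:**
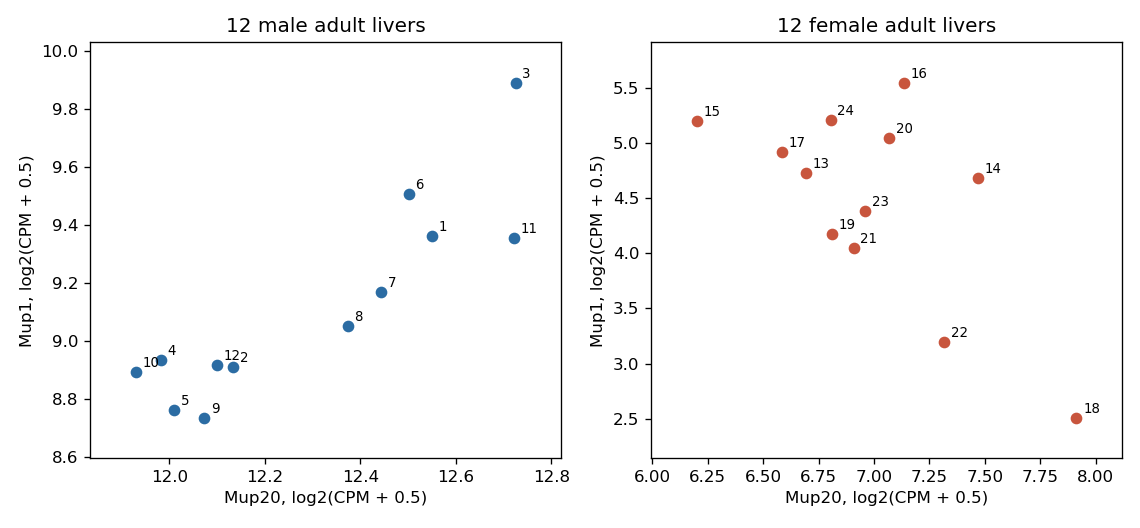
Each numbered point is 1 adult liver, with log2 (CPM + 0.5) of Mup20 on the x axis and of Mup1 on the y axis. The 12 males line up (r = 0.89), and among the 12 females (r = −0.65) liver 18 lies at the lower right end.

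The genes most like each Mup gene were taken over the 24 adult livers after subtracting the mean of each sex, from 10357 other genes. These are descriptions over libraries that share depth and preparation, and the top of so many genes is high by choice. Mup20 was closest to C6 (r = 0.75), C9 (0.73) and Siah1a (0.71), and Mup21 to C9 (0.83), C6 (0.67) and Cfhr2 (0.66). C6 and C9 encode the terminal complement proteins of those names, made by hepatocytes. Mup1 was closest to Trhde (0.83), 9530008L14Rik (0.82) and Ces2c (0.79), and Mup3 to Nfe2l1 (0.68), Cd81 (0.64) and Pon3 (0.62).

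The pathway that carries growth hormone and steroid signals to these genes was followed through 22 listed regulators. In adult liver all 22 passed the filter, and edgeR called 2 higher in males and 5 higher in females, against 3.01% and 6.49% of all genes. Their median log2 difference was 0.06, that of all genes −0.001. Among receptors, Prlr, the prolactin receptor, had 78.9 ± 27.8 CPM in males and 372 ± 58.2 in females (log2 −2.27, edgeR adjusted p = 1.35e-11), with every female above every male. Esr1, the estrogen receptor, had 23.97 ± 4.85 and 67.6 ± 9.70 CPM (log2 −1.53, edgeR adjusted p = 1.93e-14). Ghr, the growth hormone receptor, had 861 ± 68.7 and 709 ± 62.3 CPM, a log2 difference of 0.25 that stayed under the size limit.

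Of the transcription factors and feedback genes, Cux2, a repressor of male-biased liver genes in females, had 0.385 ± 0.288 CPM in males and 29.7 ± 10.3 in females (log2 −6.07, edgeR adjusted p = 3.98e-18). Bcl6, a repressor of female-biased genes, had 37.6 ± 23.9 and 10.3 ± 8.51 CPM (log2 1.79, edgeR adjusted p = 0.0035), and the sexes overlapped. Socs2, a feedback inhibitor induced by growth hormone, was lower in males (log2 −2.14, edgeR adjusted p = 4.02e-05). Cebpb, a liver transcription factor, was higher in males (log2 0.91, edgeR adjusted p = 0.00666), a call lost without the 8 adult livers of low counted share. Stat5b, which carries the growth hormone signal to the nucleus, had a log2 difference of −0.14 (edgeR adjusted p = 0.122). Zhx2, a repressor that silences Afp in liver after birth, had one of 0.40 (edgeR adjusted p = 0.00231), under the size limit.

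In fetal liver 21 of the 22 regulators passed the filter, and edgeR called 2, both higher in males, against 3.81% of genes. They were Onecut1 (log2 0.82, edgeR adjusted p = 0.00388) and Esr1 (log2 0.53, edgeR adjusted p = 0.0234). Reads outside genes took 39.9% to 49.0% of the counted total in males of this stage and 34.1% to 38.1% in females, with no overlap, and with it as a covariate neither gene was called. Cux2 was at 39.8 ± 8.998 CPM in males and 32.8 ± 4.21 in females, and neither sex was called higher. Between fetal and adult liver, edgeR called 17 of the 22 higher in adults and 2 (Jak2 and Cux2) lower, the call of Cux2 being lost with the share of reads outside genes as a covariate, where 31.8% and 35.3% of all genes were called. This stage term averages the sexes, which differed for Cux2. In males Cux2 had 39.8 CPM in fetal and 0.385 CPM in adult liver, and in females 32.8 and 29.7 CPM. Its difference of the sex differences was a log2 of −6.38 (edgeR adjusted p = 4.54e-24). Igf1, the growth factor that growth hormone induces in liver, rose from 37.0 ± 4.59 to 603 ± 118 CPM in males (log2 4.81 in the fit of both sexes, edgeR adjusted p = 4.03e-44). Ghr rose from 144 ± 15.9 to 861 ± 68.7 CPM in males (log2 3.03, edgeR adjusted p = 7.22e-51). The CPM were scaled within each stage and the fit over both, so these log2 differences are not the ratios of the CPM. Stat5a, among those called higher in adults (log2 0.59), had 22.4 CPM in fetal and 21.5 CPM in adult males. That call was lost with DESeq2 and with its size factors.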

How the data were processed

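The deposited files hold raw counts of reads per gene, 1 file per sample, made by the authors. Per the labels and methods, reads were aligned to mm10 with TopHat2 2.0.4 and Bowtie2 2.1.0, SAMtools 0.1.18 was used, duplicates were removed with Picard, and HTSeq counted reads matching 1 gene. A file lists 23338 genes and 5 summary lines. Reads on genes were 26.8% to 72.0% of counted lines, and only they entered library sizes. Genes, lists and tests were chosen with earlier results of these data known.

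Each stage was fitted alone on sex with edgeR 4.0.16 (TMM, filterByExpr, robust quasi-likelihood test, Benjamini-Hochberg adjustment, R 4.3.3), and both liver stages together for stage and interaction. A gene was called at an adjusted p under 0.1 and an absolute log2 difference above 0.5. Fits were tested on simulated counts. Permutation tests used 100000 resamples and were two-sided (scipy 1.17.1). The named genes were the 7 Mup genes, other Mup genes called or above 1 CPM, 22 listed regulators, and per gene the 3 most correlated genes. Values of some listed genes are not reported here. Transcript stretches and identities used GENCODE vM21 sequences and Biopython 1.88. Alternatives were DESeq2 1.42.0, its size factors, no filter, no fold limit, the share of lines outside genes as a covariate, a block on the sample number, and libraries left out. Each liver was labelled as a separate sample, and p-values measure the spread between these samples.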

Additional observations from a re-analysis of the deposited data

Results flagged for a closer look

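The difference between adult and fetal liver in log2 (male/female) was called for 3 other Mup genes. It was 13.2 for Mup7 (edgeR adjusted p = 4.25e-08), 7.17 for Mup12 (edgeR adjusted p = 0.0163) and 13.5 for Mup14 (edgeR adjusted p = 9.07e-08). These genes entered the fit through the adult livers alone, so the p-values are no separate support for the differences. These sizes depend on the prior count, because fetal males had no read on these genes, and are no bounds. Without female fetal livers 21 and 22 the sizes were 7.79 for Mup7, 5.22 for Mup12 and 8.50 for Mup14. None of the 6 genes tested was then called, with an edgeR adjusted p of 0.199 for Mup7. With the share of lines outside genes as a covariate, Mup12 was not called (edgeR adjusted p = 0.368). DESeq2 on all 48 livers called 4, Mup8 in addition (adjusted p = 5.73e-06).

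Reads on Mup6 in the ES lines stood above the 3-read limit in data that no comparison used. The mean was 5.68 CPM in male lines and 10.9 CPM in female lines, and the cause was not tested.

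Mup10, a gene outside the described set, had 240 reads in adult male 5 and at most 12 in each other male. Its male mean was 5.71 CPM with that liver and 1.81 CPM without it. This gene was named after its values were seen.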

How the results depend on the processing

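The log2 (male/female) of Mup1, Mup3, Mup20 and Mup21 in adult liver kept its sign in all 6 alternative fits and lay between 4.31 and 4.52, 0.84 and 0.94, 5.02 and 5.35, and 4.45 and 4.72. With no filter on low counts, 2 of the 7 genes and 1 other Mup gene were called in fetal liver, and 18 Mup genes by stage in place of 10, since more genes were tested. With the share of lines outside genes as a covariate, 0 regulators were called by sex in fetal liver in place of 2. By stage, with the adult/fetal difference read at the mean share of 35.0%, the same 10 Mup genes were called, all higher in adults, and 19 regulators, where Onecut1 (log2 1.02) was gained and Cux2 (−0.06) lost. The cause was not tested. Without female fetal livers 21 and 22, 0 other Mup genes were called for the interaction in place of 3. With no fold limit, 12 regulators were called in adult liver in place of 7 and 9 in fetal liver in place of 2. Without adult male 3, 1 correlation passed in place of 3. With TMM factors over all 64 libraries, adult levels were higher: Mup3 5585 CPM in males and 2945 CPM in females, Mup20 6267 CPM in males and Mup21 15.1 CPM in females. The alternatives that left out libraries or scaled all 64 together were chosen after seeing the data.

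Sample numbers shared between fetal and adult liver did not pair the samples, which were different animals: over 24 pairs the correlation of deviations had a median of −0.01, and 1 sample was most alike its own number. A replicate block on that number gave 10 Mup genes and 19 regulators by stage and 3 other Mup genes for the interaction, as without it. Depth limits the fetal values, where most libraries had fewer than 3 reads on each gene, and near-identical copies limit Mup1 and Mup2.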
